A study of Rattus norvegicus with 9 samples.

Results

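The interferon-induced genes and factors followed here are 9 genes measured in cultured neonatal rat ventricular myocytes. They are the signalling factors Stat2, Irf9 and Irf7, the ISG15 system genes Isg15 and Usp18, and the antiviral and interferon-induced genes Mx1, Mx2, Ifi44 and Ifi27. They are 9 of the 17327 rows of the count table, and all 9 were among the 11873 genes that passed the filter on low counts. The 9 genes were selected on their measured counts in these same 9 libraries, in which earlier work had seen them differ between treatments and between single samples. Their differences below are therefore a description, and the adjusted p-values beside them are not independent support.

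Most cells make little of the antiviral effector proteins at rest. When a type I interferon binds the receptor chains IFNAR1 and IFNAR2, the kinases JAK1 and TYK2 phosphorylate STAT proteins, STAT2 among them, which join IRF9 to form a transcription factor complex that binds interferon-stimulated response elements in DNA. The products include IRF7, which raises further interferon output, effectors such as the MX proteins, and USP18, which shuts the receptor down again. In the heart this system is known for the defence of myocytes against viruses.

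The cells were primary myocytes of the rat ventricle, taken from newborn animals. Per the labels they were given vehicle, phenylephrine at 50 µM (an agonist of the alpha-1 adrenergic receptor) or insulin-like growth factor 1, IGF1, at 10 nM, each for 48 hours, with 3 samples per group and no genetic change named. The study's design text describes hypertrophic growth as the state profiled. The libraries came from a NuGEN Ovation kit and were read on a NovaSeq. Whether samples of 1 group were separate cultures or litters is unstated in the labels, so all p-values measure a spread between samples that may be technical.

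The libraries held between 31274396 and 48505265 counted reads. Levels are given as CPM, the usual depth-scaled read count after edgeR's scaling between libraries, so that 1 CPM stood for 29.1 to 51.6 reads. The 10 cardiomyocyte marker genes summed to 48930 to 74330 CPM across libraries. The 10 fibroblast markers summed to 4687 to 6856 CPM, the 10 endothelial markers to 35.81 to 86.96 CPM and the 15 macrophage and leukocyte markers with a row to 95.29 to 117.4 CPM, so that RNA of other cells was present. Phenylephrine raised 27.9% and lowered 28.9% of the 11873 genes tested against vehicle. IGF1 raised 24.7% and lowered 23.4%. Between phenylephrine and IGF1, 27.1% of genes were higher and 27.1% lower with phenylephrine. With libraries scaled by their size alone, the median log2 fold change of all genes was -0.223 in place of -0.029 for phenylephrine against vehicle and -0.114 in place of -0.003 against IGF1, and 1751 genes were higher and 5696 lower than vehicle in place of 3310 and 3429. IGF1 replicate 1 stood apart from its group in many other genes, with 2.44% of all genes at least 1.5-fold above both other IGF1 libraries, but with 0 of the 9 interferon genes.

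The 9 genes varied between single libraries of a group, and 4 of them did not overlap between phenylephrine and the other groups. IGF1 replicate 2 had the highest level of the 9 libraries in 9 of 9 genes, against 11.4% of all genes tested. Vehicle replicate 3 was the highest vehicle library in 9 of 9 and stood second of all libraries in 7. Stat2, Irf9, Irf7 and Ifi44 were lower in every phenylephrine library than in every vehicle and every IGF1 library. These 4 of 9 stand beside 34% of all genes tested that lay below vehicle in this way and 29.5% that lay below IGF1.

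**Figure D1:**
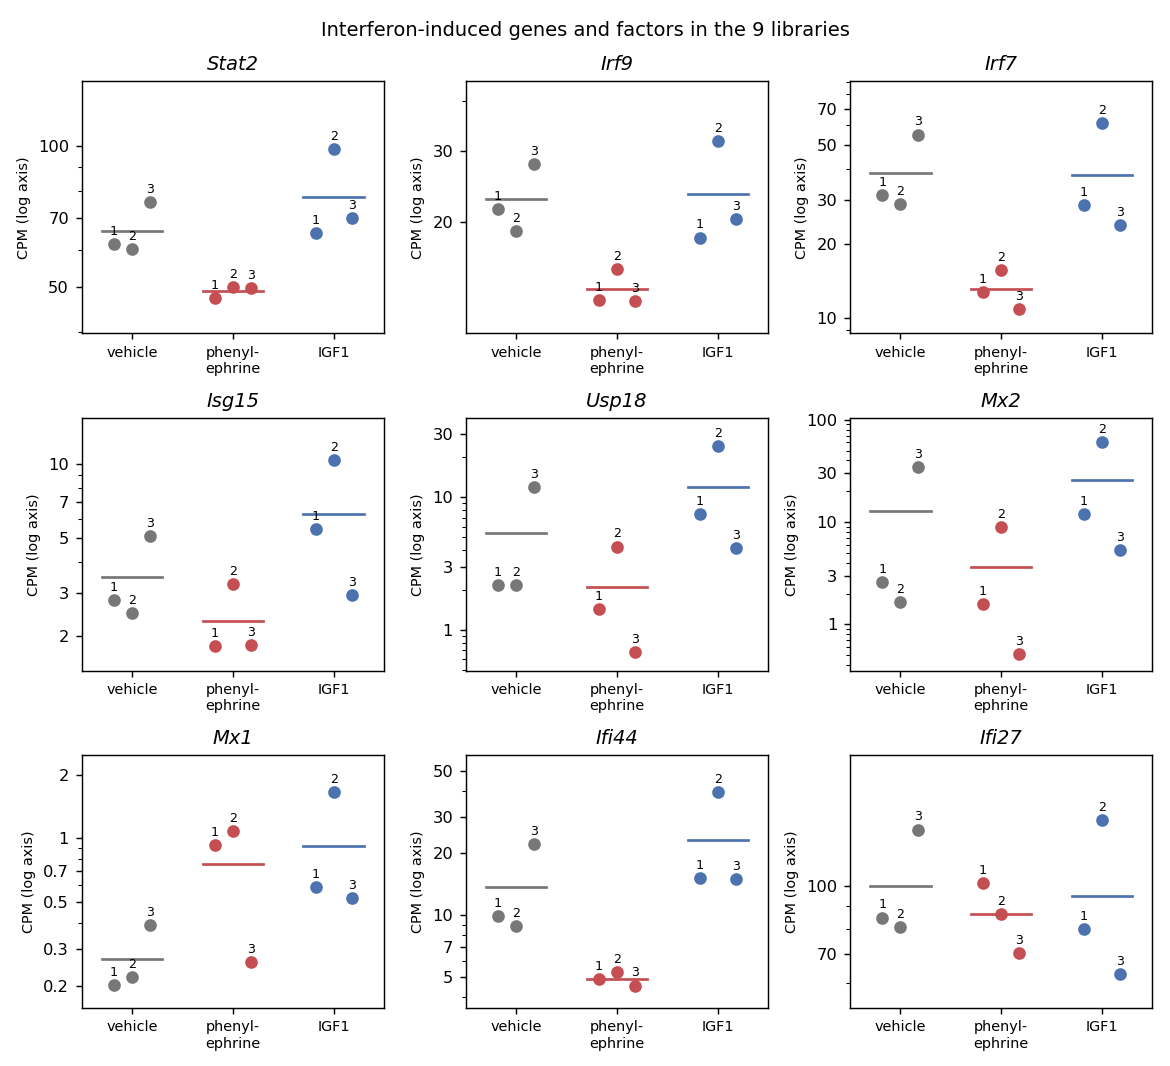
Level of each of the 9 genes in each library, in CPM on log axes that differ between panels. Points are libraries, labelled with their replicate number, and bars are group means (n = 3). The 3 phenylephrine points of Stat2, Irf9, Irf7 and Ifi44 lie below all other points, and vehicle replicate 3 and IGF1 replicate 2 are the highest of their groups in every panel.

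The promoters of the member genes were read for the core of the interferon-stimulated response element, 2 copies of GAAA separated by any 2 bases, or on the other strand 2 copies of TTTC with the same spacing. No other motif was searched. Windows of 300 bases, from 250 before to 50 after the gene's start, were taken from RefSeq on the GRCr8 build of the rat genome, and 6 of the 9 genes had an entry. Irf7, Ifi44 and Ifi27 held a match and are shown because they carry it, with the matched bases in capitals. The window of Irf7 lies at chr1:205799974-205800273 on the minus strand, that of Ifi44 at chr2:243303791-243304090 on the minus strand and that of Ifi27 at chr6:128355062-128355361 on the plus strand.
Irf7: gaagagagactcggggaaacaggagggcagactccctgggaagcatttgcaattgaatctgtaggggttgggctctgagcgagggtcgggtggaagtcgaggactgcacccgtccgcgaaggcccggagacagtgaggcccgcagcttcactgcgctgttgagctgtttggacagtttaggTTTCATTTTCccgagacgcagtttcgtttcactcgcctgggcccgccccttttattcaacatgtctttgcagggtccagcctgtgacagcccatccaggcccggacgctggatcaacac
Ifi44: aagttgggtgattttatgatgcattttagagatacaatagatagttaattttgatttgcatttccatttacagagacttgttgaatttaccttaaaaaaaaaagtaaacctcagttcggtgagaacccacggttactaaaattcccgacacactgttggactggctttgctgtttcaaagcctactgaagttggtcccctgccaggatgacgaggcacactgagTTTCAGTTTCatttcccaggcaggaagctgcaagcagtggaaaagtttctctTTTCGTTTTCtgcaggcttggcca
Ifi27: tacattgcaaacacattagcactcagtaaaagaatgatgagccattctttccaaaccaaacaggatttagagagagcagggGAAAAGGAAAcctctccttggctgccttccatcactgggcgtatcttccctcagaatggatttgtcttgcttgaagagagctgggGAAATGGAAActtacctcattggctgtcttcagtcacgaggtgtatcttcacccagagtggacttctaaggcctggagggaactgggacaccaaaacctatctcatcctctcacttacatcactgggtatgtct
The match of Irf7 began 69 bases before the start, those of Ifi44 26 bases before and 27 bases after it, and those of Ifi27 169 and 84 bases before it. No match was found in the windows of Stat2, Irf9 and Mx1.

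The same motif was found in 3.92% of all 33469 promoter windows and in 2.87% of the 8976 tested genes with an entry. Among genes of the pathway list it was found in 19 of 33 antiviral effectors (57.6%), 5 of 6 GTPases of the GBP and IRG families (83.3%) and 0 of 5 receptor genes. A match describes these letters and is not a measured binding site.

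Stat2 encodes the STAT partner that is largely devoted to type I and III interferon signalling. Its level was 61.6, 60.2 and 76.0 CPM in vehicle replicates 1 to 3, 47.4, 50.0 and 49.8 CPM with phenylephrine, and 65.1, 98.2 and 70.2 CPM with IGF1. The phenylephrine libraries lay close together and below both other groups. The lowest vehicle library exceeded the highest phenylephrine library by 1.20-fold. The fitted log2 fold change against vehicle was -0.43 ± 0.17 (SE), which did not pass (edgeR quasi-likelihood test, adjusted p = 0.072), and against IGF1 it was -0.67 (adjusted p = 0.015).

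Irf9 encodes the DNA-binding part of the complex that holds STAT2 and IRF9. Its level was 21.5, 19.0 and 27.9 CPM with vehicle, 12.8, 15.3 and 12.7 CPM with phenylephrine, and 18.3, 31.8 and 20.3 CPM with IGF1. Again no phenylephrine library reached the lowest library of another group. Against vehicle Irf9 was 1.68-fold lower with phenylephrine (-0.75 ± 0.25 SE on the log2 scale, edgeR adjusted p = 0.038), and against IGF1 1.73-fold lower (adjusted p = 0.033). The vehicle and IGF1 means of 22.8 and 23.5 CPM differed by far less than the spread within either group.

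Irf7, the factor that amplifies interferon production and has 1 match of the motif, stood at 31.4, 28.8 and 55.1 CPM with vehicle, 12.8, 15.7 and 10.9 CPM with phenylephrine, and 28.7, 61.5 and 23.8 CPM with IGF1. Phenylephrine again did not overlap with either other group, and the lowest vehicle library was 1.83-fold above the highest phenylephrine library. The vehicle and IGF1 means of 38.4 and 38 CPM were close together. Irf7 was 2.93-fold lower with phenylephrine than with vehicle (-1.55 ± 0.48 SE on the log2 scale, edgeR adjusted p = 0.032) and 2.89-fold lower than with IGF1 (adjusted p = 0.035). With IGF1 against vehicle the log2 fold change was -0.02 (adjusted p = 0.98).

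Ifi44, an interferon-induced gene with reported antiviral activity and 2 matches of the motif in its promoter, had 9.91, 8.87 and 22.1 CPM with vehicle, 4.91, 5.31 and 4.56 CPM with phenylephrine, and 15.1, 39.6 and 14.9 CPM with IGF1. Its phenylephrine libraries were within 1.17-fold of each other, the vehicle libraries within 2.49-fold and the IGF1 libraries within 2.66-fold. Ifi44 was 4.73-fold lower with phenylephrine than with IGF1 (-2.24 ± 0.60 SE on the log2 scale, edgeR adjusted p = 0.019). Against vehicle it was -1.47 ± 0.60 and did not pass (adjusted p = 0.079), although the groups did not overlap.

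In bulk RNA a lower level in each cell and fewer cells that carry the transcript cannot be told apart. The 4 genes with phenylephrine below vehicle in all libraries were 4 of 9, beside 34% of all genes tested. The 4 with phenylephrine below IGF1 were the same genes, beside 29.5% of all genes tested. By edgeR's test 2 of 9 were lower and 0 higher with phenylephrine against vehicle (1 higher, Mx1, at an unadjusted p under 0.05 and by DESeq2, 0 by limma-voom), and 4 lower and 0 higher against IGF1 (0 higher at an unadjusted p under 0.05 and by both other tools). Of all genes tested, the same test called 28.9% lower and 27.9% higher against vehicle, and 27.1% lower and 27.1% higher against IGF1. Beside backgrounds of this size the counts are no result about these 9 genes. The median log2 fold change of the 9 genes was -0.75 against vehicle, where all genes had -0.029, and -1.40 against IGF1, where all genes had -0.0025. The 2 comparisons share the phenylephrine libraries.

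The calls of Irf7 and Irf9 against vehicle depended on which libraries entered. Without vehicle replicate 3 their log2 fold changes were -1.20 and -0.58 (edgeR adjusted p = 0.084 and 0.085). Without phenylephrine replicate 1, 2 or 3 in turn the adjusted p was 0.086, 0.064 and 0.097 for Irf7 and 0.10, 0.053 and 0.10 for Irf9, and Irf9 was at 0.062 without vehicle replicate 1. Without IGF1 replicate 2, which enters the shared estimate of the spread, all 4 genes passed, at 0.0096 for Irf7, 0.0011 for Irf9, 0.00066 for Stat2 and 0.029 for Ifi44. With vehicle replicate 3 and IGF1 replicate 2 both left out, the log2 fold changes were -1.21, -0.59, -0.32 and -0.95, with adjusted p of 3.6e-05, 0.00028, 0.00025 and 1.6e-05. Those libraries were left out for their levels of these very genes, so the smaller p-values are given as a description only. The direction was negative for the 4 genes in each of these fits.

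Against IGF1 the Stat2 call was kept without any single library, between 0.0011 and 0.044. Those of Irf7, Irf9 and Ifi44 were lost without phenylephrine replicate 1 (edgeR adjusted p = 0.093, 0.089 and 0.059) and without phenylephrine replicate 3 (0.11, 0.089 and 0.062). Without phenylephrine replicate 2, Irf7 and Ifi44 were lost (0.070 and 0.056). Irf7 was also lost without IGF1 replicate 2 (0.075, log2 fold change -0.99) and without vehicle replicate 1 (0.051).

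The 5 remaining genes did not separate phenylephrine from the other groups. Isg15 encodes a ubiquitin-like protein that is attached to other proteins. It was at 2.81, 2.49 and 5.12 CPM with vehicle, 1.82, 3.26 and 1.84 CPM with phenylephrine, and 5.43, 10.4 and 2.95 CPM with IGF1. The groups overlapped in each comparison. Against vehicle the log2 fold change was -0.60 ± 0.58 (SE) with phenylephrine and 0.84 with IGF1 (edgeR adjusted p = 0.42 and 0.23).

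Usp18, the protease that removes ISG15 from proteins and restrains the interferon receptor, was at 2.18, 2.17 and 11.9 CPM with vehicle, 1.44, 4.25 and 0.679 CPM with phenylephrine, and 7.50, 24.4 and 4.17 CPM with IGF1. One library was far above the other 2 in each group. The highest library exceeded the lowest by 5.47-fold in vehicle, 6.27-fold in phenylephrine and 5.86-fold in IGF1. The fitted difference between phenylephrine and vehicle, -1.36 ± 1.19 on the log2 scale (edgeR adjusted p = 0.37), became -0.05 with vehicle replicate 3 left out.

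Mx2, whose protein is a GTPase of the antiviral MX family, varied most within the groups. It was at 2.61, 1.64 and 34.3 CPM with vehicle, 1.58, 8.89 and 0.517 CPM with phenylephrine, and 12, 60.5 and 5.36 CPM with IGF1, from 16 reads in phenylephrine replicate 3 to 2678 in IGF1 replicate 2. The highest library of a group exceeded the lowest by 20.9-fold, 17.2-fold and 11.3-fold. The log2 fold change of phenylephrine against vehicle was -1.82 ± 1.71 (edgeR adjusted p = 0.41) and turned to 0.77 without vehicle replicate 3. That of IGF1 against vehicle was 1 (adjusted p = 0.61) and turned to -0.63 without IGF1 replicate 2.

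Mx1, the relative of Mx2 in the same family, was low, with 8 to 73 reads per library. It was at 0.202, 0.220 and 0.388 CPM with vehicle, 0.927, 1.09 and 0.259 CPM with phenylephrine, and 0.592, 1.65 and 0.524 CPM with IGF1. It was the only one of the 9 called with IGF1 against vehicle, 3.39-fold higher (1.76 ± 0.56 SE on the log2 scale, edgeR adjusted p = 0.020), and the only one with every IGF1 library above every vehicle library, beside 28.8% of all genes tested. The call was lost without IGF1 replicate 2 (1.01, adjusted p = 0.14), without vehicle replicate 1 (0.083) and without vehicle replicate 2 (0.072). With phenylephrine against vehicle Mx1 had a log2 fold change of 1.46 (adjusted p = 0.052), opposite in sign to the other 8. Mx1 and Mx2 are similar in sequence, and no source used here states how shared reads were assigned, so their levels are uncertain.

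Ifi27, which encodes a small mitochondrial protein strongly induced by interferon and has 2 matches of the motif, was at 84.9, 80.8 and 135 CPM with vehicle, 102, 86.4 and 70.4 CPM with phenylephrine, and 80, 142 and 63.2 CPM with IGF1. All 3 groups overlapped. The log2 fold changes were -0.22 with phenylephrine and -0.08 with IGF1 against vehicle (edgeR adjusted p = 0.65 and 0.89), and each changed sign without vehicle replicate 3, to 0.05 and 0.19. Over the 9 genes the median log2 fold change of IGF1 against vehicle was 0.77, where all genes had -0.0018. By edgeR 1 of 9 was called higher and 0 lower, beside 24.7% and 23.4% of all genes tested, so the count is no result about these genes. The count lower was 0 also at an unadjusted p under 0.05, by DESeq2 and by limma-voom.

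**Figure D2:**
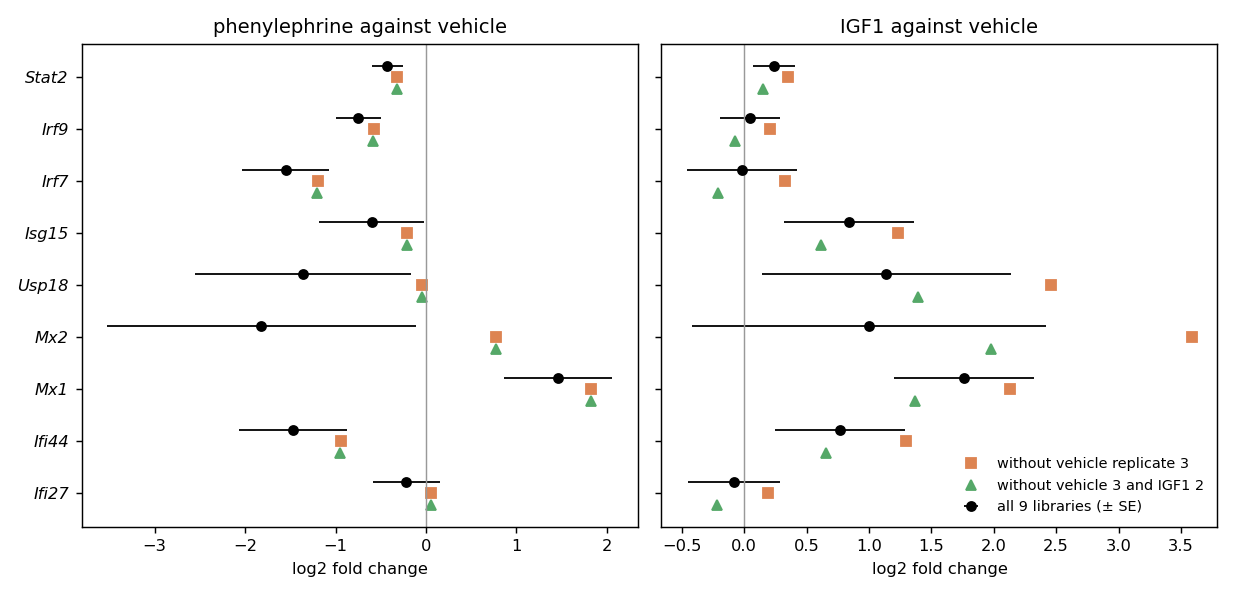
Log2 fold changes of the 9 genes for phenylephrine against vehicle (left) and IGF1 against vehicle (right). Black points with bars are the fit of all 9 libraries ± SE, squares leave out vehicle replicate 3 and triangles leave out vehicle replicate 3 and IGF1 replicate 2. In the left panel Stat2, Irf9, Irf7 and Ifi44 stay below 0 in all 3 fits, while Mx2 moves from -1.82 to 0.77.

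The single-library differences ranged from small to large, and the libraries high in most of the 9 genes are given first. In vehicle replicate 3 the level over the mean of the other 2 vehicle libraries was 16.1-fold for Mx2, 5.46-fold for Usp18, 2.35-fold for Ifi44, 1.93-fold for Isg15, 1.84-fold for Mx1, 1.83-fold for Irf7 and 1.63-fold for Ifi27. It was 1.38-fold for Irf9 and 1.25-fold for Stat2. The largest ratios were those of Mx2 and Usp18, and the smallest those of Stat2 and Irf9. Mx1, with 10, 9 and 20 reads in vehicle replicates 1 to 3, was close to the factor Irf7, and no order by role is drawn. In IGF1 replicate 2 the level over the mean of the other 2 IGF1 libraries was 6.97-fold for Mx2, 4.19-fold for Usp18 and 2.95-fold for Mx1. It was 2.64-fold for Ifi44, 2.49-fold for Isg15, 2.34-fold for Irf7, 1.99-fold for Ifi27, 1.65-fold for Irf9 and 1.45-fold for Stat2. In phenylephrine replicate 2 Mx2 and Usp18 were 8.48-fold and 4.01-fold above the mean of the other 2, whereas Ifi44 and Stat2 were at 1.12-fold and 1.03-fold. Other libraries stood low. In phenylephrine replicate 3 the ratio to the mean of the other 2 was 0.0988 for Mx2, 0.238 for Usp18 and 0.257 for Mx1, and in IGF1 replicate 3 it was 0.148 for Mx2, 0.261 for Usp18 and 0.373 for Isg15.

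**Figure D3:**
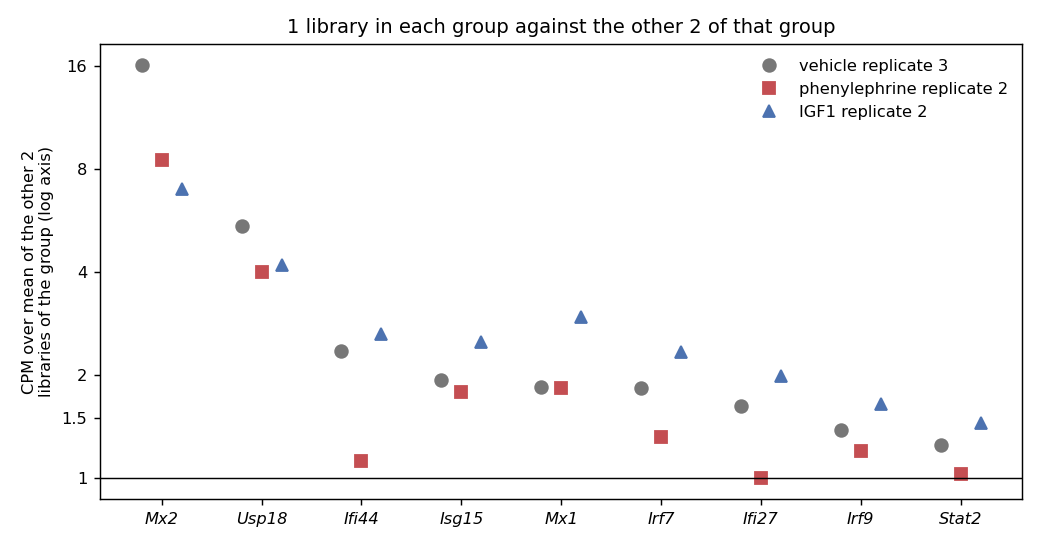
Level of each gene in vehicle replicate 3 (circles), phenylephrine replicate 2 (squares) and IGF1 replicate 2 (triangles), divided by the mean of the other 2 libraries of the same group, on a log2 axis. Mx2 and Usp18 lie highest in all 3 libraries, from 4.01-fold to 16.1-fold, and Stat2 lies between 1.03-fold and 1.45-fold.

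Counted by a fold of at least 1.5 above both other libraries of the group, vehicle replicate 3 held 7 of the 9 genes (all but Stat2 and Irf9), beside 0.75% of all genes tested. IGF1 replicate 2 held 8 (all but Stat2), beside 1.31%, and phenylephrine replicate 2 held Mx2, Usp18 and Isg15, beside 1.09%. By the same fold below both other libraries, phenylephrine replicate 3 held Mx1, Mx2 and Usp18 (beside 1.41%), IGF1 replicate 3 held Mx2, Usp18 and Isg15 (beside 0.96%) and vehicle replicate 2 held Mx2 (beside 1.31%). Among the 9301 genes with a mean of at least 5 CPM, 9 genes (0.0968%) stood out in vehicle replicate 3, and 5 of them were Mx2, Usp18, Irf7, Ifi27 and Ifi44. The other 4, seen after this count was made, were Lgals3bp and Parp9, both interferon-inducible, Apol9a, an apolipoprotein L family gene, and RT1-S3, a class Ib major histocompatibility gene that belongs to a family of near-identical copies. All 9 were also among the 19 (0.204%) that stood out in IGF1 replicate 2, where they made up 47.4%. In phenylephrine replicate 2 there were 3 such genes (0.0323%), of which Mx2 and Usp18 were 2. The mean is taken over all 9 libraries, so a gene can pass through the libraries where it is high. Mx2 and Usp18 did so, at 2.61 and 2.18 CPM in vehicle replicate 1, so their part in these counts is a description only.

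The promoter motif was also looked up in all genes at least 1.5-fold above both other libraries of their group, where 12 of 61 with an entry held it in vehicle replicate 3 (19.7%), 22 of 109 in IGF1 replicate 2 (20.2%), 5 of 85 in phenylephrine replicate 2 (5.88%) and 3 of 209 in IGF1 replicate 1 (1.44%). Outside the interferon genes and pathway list the shares were 2 of 44 (4.55%) in vehicle replicate 3 7 of 83 (8.43%) in IGF1 replicate 2 and 3 of 81 (3.7%) in phenylephrine replicate 2. In vehicle replicate 2, where none of the 9 genes stood out upward, the share outside the lists was 3 of 59 (5.08%), above that of vehicle replicate 3.

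**Figure D4:**
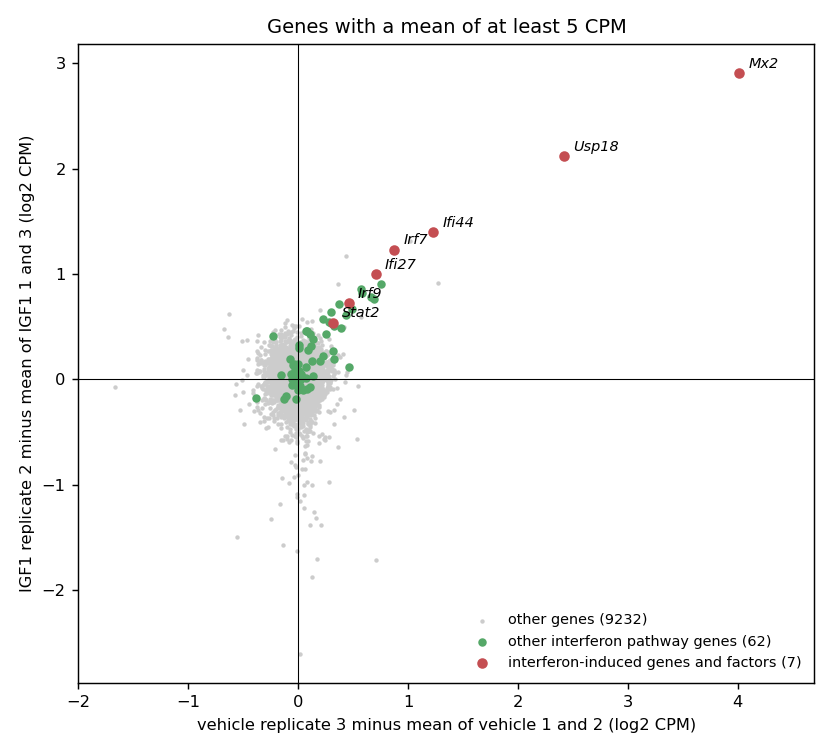
Each point is 1 of the 9301 genes with a mean of at least 5 CPM, placed by its log2 CPM in vehicle replicate 3 minus the mean of the other 2 vehicle libraries (x axis) and in IGF1 replicate 2 minus the mean of the other 2 IGF1 libraries (y axis). Red points are the 7 of the 9 interferon genes that reach this level and green points the other interferon pathway genes. The red points run from near the cloud of grey points (Stat2) to its far upper right (Mx2).

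Markers of other cells were read in the same libraries. The macrophage and leukocyte markers summed to 114, 101.4 and 116.9 CPM in vehicle replicates 1 to 3, to 117.4, 95.29 and 100.7 CPM with phenylephrine and to 96.54, 103.3 and 96.33 CPM with IGF1. Vehicle replicate 3 and IGF1 replicate 2 were the highest of their groups, but phenylephrine replicate 2, the library with more Mx2 and Usp18, was the lowest of its group. None of these 15 markers was at 0 in all libraries and 3 stayed under 1 CPM in all. Within the list, Adgre1, the macrophage surface marker F4/80 chosen here after its values were seen, was at 4.93, 5.08 and 6.69 CPM with vehicle, 3.54, 4.03 and 2.23 CPM with phenylephrine and 6.88, 9.24 and 6.16 CPM with IGF1. Ptprc, C1qa and Laptm5 were also the highest of their groups in vehicle replicate 3 and IGF1 replicate 2. The other markers of the list were not. Fcer1g and Itgam were highest of their group in vehicle replicate 3 but lowest in IGF1 replicate 2, at 6.37 and 4.04 CPM. Lyz2 was at 38 ± 2.84 CPM (SD, n = 3) with vehicle and 28.5 ± 2 with IGF1. In the same groups Adgre1 was at 5.57 ± 0.973 and 7.43 ± 1.61. Lymphocyte and plasmacytoid dendritic cell markers summed to 21.26 to 27.41 CPM, with 7 of 9 under 1 CPM in all libraries. The part of these cells in the interferon values was not tested.

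Of the 6 interferon genes with a row, out of 12 looked up, none passed the filter. Among them 5 had 0 reads in all 9 libraries, which allows up to 0.0582 to 0.103 CPM (3 reads) per library. Ifnb1, which encodes interferon beta and is named here for its counts, had 0, 1 and 4 reads in vehicle replicates 1 to 3, 0, 1 and 0 with phenylephrine and 0 in each IGF1 library. Its largest count fell in vehicle replicate 3, but these reads are too few to compare groups.

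The genes whose pattern across the 9 libraries was most like the mean of the 9 members came largely from the same pathway. Likeness was Pearson's r with the mean standardised log2 CPM of the members, over 9 libraries, and it is given as a description. The 10 nearest were Dhx58, Irgm, Eif2ak2, Lgals3bp, Rnf168, Parp9, Oasl2, Oas1a, Ifi35 and Oas1b, with r from 0.94 to 0.98. On the pathway list were 9 of the 10, beside 94 of all 11873 genes tested. That list was written with earlier results of these data known, so the 9 are no independent support. Dhx58, which encodes the RNA sensor LGP2, was at 2.63, 1.93 and 6.20 CPM with vehicle, 1.27, 1.85 and 1.20 CPM with phenylephrine and 3.32, 10.3 and 2.58 CPM with IGF1. Eif2ak2, which encodes the double-stranded RNA kinase PKR, spanned a narrower range, from 56.0 to 110 CPM, and again IGF1 replicate 2 and vehicle replicate 3 were highest. Rnf168, a ubiquitin ligase of the DNA damage response and the exception to the list, ranged only from 23.0 to 28.1 CPM. Oas1a and Oas1b belong to a family of close copies and their counts are uncertain.

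The other genes of the pathway were taken from a list of 140 symbols that was written with earlier results of these data known. Of these 110 had a row and 94 were tested. With phenylephrine against vehicle 10 were higher, 30 lower and 54 not called, with a median log2 fold change of -0.24. Of all genes tested 27.9% were higher and 28.9% lower. The share of lower pathway genes was thus near the background, and that of higher ones, 10 of 94, was under it. The counts by role below stand beside the same shares. Without vehicle replicate 1 the count of higher genes was 4, without vehicle replicate 2 it was 6, and with vehicle replicate 3 and IGF1 replicate 2 left out the counts were 9 higher and 34 lower. With scaling by library size alone 4 were higher and 50 lower, but that scaling also moved the counts of all genes toward lower, as given above. The shares of all genes in this paragraph are those of the fit of all 9 libraries with edgeR's scaling. With IGF1 against vehicle 10 were higher and 19 lower, beside 24.7% and 23.4% of all genes tested, with a median of 0.021, and the counts were 12 and 18 with the same 2 libraries left out. With vehicle replicate 3 and IGF1 replicate 1 left out, 18 were higher and 18 lower.

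Among 5 receptor genes, 3 were lower and 1 higher with phenylephrine, and 3 lower with IGF1. Ifnar1, a chain of the type I interferon receptor, was at 94.3 ± 2.41 CPM (SD, n = 3) with vehicle, 82.0 ± 1.82 with phenylephrine and 67.1 ± 1.89 with IGF1, and the groups did not overlap. It fell with phenylephrine by 0.20 and with IGF1 by 0.49 on the log2 scale (edgeR adjusted p = 0.00091 and 2.8e-07). Il10rb, a receptor chain shared by interleukin 10 and type III interferons, fell with IGF1 by 0.41 (adjusted p = 5.7e-05). Its smaller fall of 0.15 with phenylephrine (adjusted p = 0.043) was lost without vehicle replicate 3 (0.14) and without phenylephrine replicate 1, 2 or 3 (0.11, 0.10 and 0.063).

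Of the 5 kinase and STAT genes, 3 were lower and 1 higher with phenylephrine. Tyk2, a receptor kinase, was at 30.2 ± 0.656 CPM (SD, n = 3) with vehicle and 24.8 ± 0.452 with phenylephrine (edgeR adjusted p = 0.00087).

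Regulators of the pathway included 1 higher and 3 lower of 7 with phenylephrine. Socs3, a feedback inhibitor of JAK kinases, was 1.89-fold lower with phenylephrine and 1.67-fold lower with IGF1 (edgeR adjusted p = 0.00030 and 0.0016). Trim25, a ubiquitin ligase that activates the RNA sensor RIG-I, was at 28, 30.5 and 31.5 CPM with vehicle and 16, 15.8 and 16.4 CPM with phenylephrine, 1.87-fold lower (adjusted p = 2.4e-05). With IGF1 its libraries overlapped with vehicle, and the call (adjusted p = 0.040) was lost without vehicle replicate 2 (0.091), vehicle replicate 3 (0.11), IGF1 replicate 3 (0.091) and each phenylephrine library (0.058 to 0.062).

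By edgeR 0 of 5 nucleic acid sensor genes were called against vehicle with phenylephrine (0 also at an unadjusted p under 0.05, by DESeq2 and by limma-voom) and 0 with IGF1 (1 higher at an unadjusted p under 0.05 and by DESeq2, 0 by limma-voom). Ddx58, which encodes RIG-I, was at 26.1, 27.0 and 37.3 CPM with vehicle, 24.4, 28 and 23.3 CPM with phenylephrine and 39.5, 62.8 and 39.4 CPM with IGF1. Every IGF1 library exceeded every vehicle library, but the difference of 0.65 ± 0.23 (SE) on the log2 scale did not pass (edgeR adjusted p = 0.058). Of 12 adaptors and factors, 1 was higher and 4 lower with phenylephrine and 5 lower with IGF1. Tmem173, which encodes the DNA-signalling adaptor STING, was 1.69-fold lower with IGF1 (adjusted p = 0.0056, and 0.067 with vehicle replicate 3 and IGF1 replicate 2 left out). Ikbke, a kinase upstream of interferon factors, was 1.58-fold lower with phenylephrine (adjusted p = 0.0046).

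Of the 3 tested genes of ISG15 attachment and the HERC family, 2 were higher with each agent. Ube2l6, the conjugating enzyme for ISG15, was at 10.1, 8.60 and 15.1 CPM with vehicle, 22.6, 23.6 and 21.8 CPM with phenylephrine and 23.9, 36.0 and 18.7 CPM with IGF1. Both treated groups lay above all vehicle libraries. It was 2.00-fold higher with phenylephrine and 2.32-fold higher with IGF1 (edgeR adjusted p = 0.028 and 0.015). The first call was lost without vehicle replicate 1 or 2 (0.085 and 0.077) and without phenylephrine replicate 1, 2 or 3 (0.062, 0.068 and 0.057), and the second without vehicle replicate 1 (0.054). Herc4, a ubiquitin ligase of the HERC family, rose 1.41-fold with phenylephrine (adjusted p = 6.7e-07). With IGF1 it was 1.11-fold higher (adjusted p = 0.021), a call lost without vehicle replicate 2 or 3 (0.090 and 0.099) or IGF1 replicate 2 (0.053).

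Among 37 antiviral effectors tested, 3 were higher, 7 lower and 27 not called with phenylephrine, with a median log2 fold change of -0.38. The 7 lower genes by edgeR, beside 28.9% of all genes tested, were 12 at an unadjusted p under 0.05, 13 by DESeq2 and 7 by limma-voom. Rtp4, an interferon-induced gene of the receptor transporter family, was at 1.56, 1.95 and 3.10 CPM with vehicle and 0.584, 1.12 and 0.259 CPM with phenylephrine, 3.36-fold lower (edgeR adjusted p = 0.027). That call was lost without vehicle replicate 3 (0.069), phenylephrine replicates 1 and 3 (0.088 and 0.078) and IGF1 replicate 1 (0.068). Cmpk2, a mitochondrial nucleotide kinase gene, fell 1.96-fold with phenylephrine (adjusted p = 0.0049). With IGF1 it was 1.51-fold higher (adjusted p = 0.041), and this was lost without vehicle replicate 1 or 2 (0.15 and 0.14), IGF1 replicate 2 or 3 (0.15 and 0.069) and phenylephrine replicate 1 (0.052).

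The 6 GTPase genes of the GBP and IRG families, best known as targets of interferon gamma, held 1 lower with phenylephrine and 1 higher and 1 lower with IGF1. Igtp, an IRG family gene, was at 9.30, 9.77 and 12.9 CPM with vehicle, 7.18, 6.59 and 5.65 CPM with phenylephrine and 14.0, 22.9 and 16 CPM with IGF1. The 3 groups were fully separated. It was 1.65-fold lower with phenylephrine (edgeR adjusted p = 0.013, and 0.051 without phenylephrine replicate 3) and 1.65-fold higher with IGF1 (adjusted p = 0.0099). Gbp4 was 1.47-fold lower with IGF1 (adjusted p = 0.0066).

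Antigen processing and chemokine genes held the largest called fall of the pathway list with phenylephrine, that of Cxcl11. Of 14 tested, 9 were lower and 1 higher with phenylephrine, and 5 higher and 3 lower with IGF1. Cxcl11, a chemokine that attracts T cells, was at 7.32, 7.45 and 6.24 CPM with vehicle, 1.58, 1.69 and 1.68 CPM with phenylephrine and 2.47, 2.98 and 3.65 CPM with IGF1. Vehicle replicate 3 was the lowest vehicle library here, unlike in the 9 member genes. Cxcl11 was 4.23-fold lower with phenylephrine and 2.28-fold lower with IGF1 (edgeR adjusted p = 9.2e-08 and 1.2e-05). Ciita, the master regulator of class II major histocompatibility genes, had 0, 0 and 2 reads with vehicle, 2, 3 and 7 with phenylephrine and 22, 17 and 45 with IGF1. Its IGF1 libraries were all above the vehicle libraries (adjusted p = 4.6e-05), and it was the 1 gene of these 14 called higher with phenylephrine (adjusted p = 0.031, lost without vehicle replicate 1, vehicle replicate 2 or phenylephrine replicate 3, at 0.094, 0.080 and 0.15). The vehicle counts lie under the 3 reads taken here as the floor, so no fold is given.

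**Figure D5:**
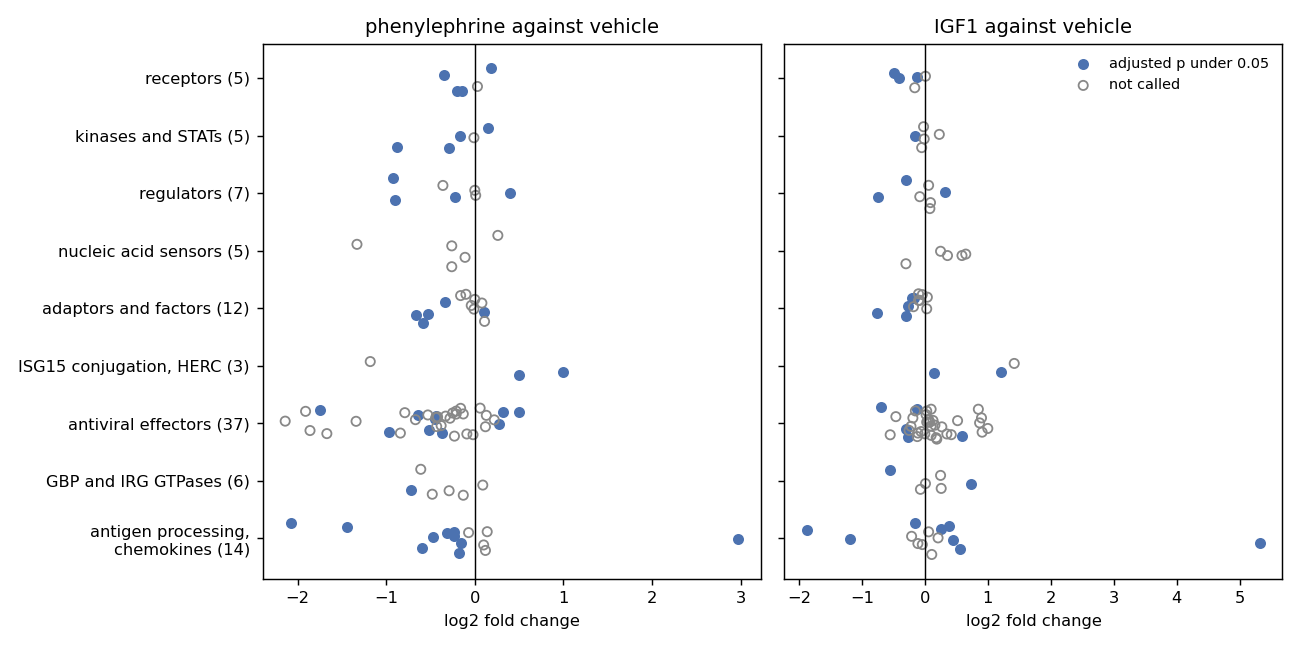
Log2 fold changes of the 94 tested pathway genes, by role, for phenylephrine against vehicle (left) and IGF1 against vehicle (right). Filled points passed an adjusted p of 0.05 and open points did not, with the number of genes tested beside each role. With phenylephrine 30 called genes lie below 0, a share near that of all genes tested (28.9%). Above 0 lie 10, a share under that of all genes tested (27.9%). Cxcl11 is at -2.08, and the far right points are Ciita, whose vehicle libraries held 0 to 2 reads.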

How the data were processed

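The authors deposited 1 table of unnormalized whole-number counts for 9 libraries. The tools named, per the submitters' processing notes, are STAR, HTSeq and DESeq, and the genome build is rn5, with no versions or roles, and no source used here states whether strand was used. Groups and replicate numbers come from the sample titles. From the counts, edgeR 4.0.16 (R 4.3.3) kept 11873 genes by filterByExpr (minimum count 10, minimum total 15), scaled by TMM and fitted the robust quasi-likelihood test to all 9 libraries, with p-values adjusted by Benjamini-Hochberg over all genes at 0.05. The fit was first tested on simulated data with the same small spread for every gene. That test does not cover genes as variable between libraries as Mx2 and Usp18. CPM values use the TMM scaling. Printed ratios of a library to the mean of the other 2, and of highest to lowest, are of CPM without a prior count. Counts of genes at least 1.5-fold or 2-fold above or below both other libraries use log2 CPM with a prior count of 2. The plot of log2 CPM differences in vehicle replicate 3 and IGF1 replicate 2 also uses that prior count. The 9 genes, the pathway list and the marker lists were chosen with earlier results of these data known. Named pathway genes were the 2 of each role with the largest log2 fold change past the threshold with either agent, or the one with the smallest adjusted p, and the 10 genes most like the members. Alternatives were DESeq2 1.42.0, limma-voom (limma 3.58.1), other scalings and filters, fits of 2 groups, the replicate block, a threshold of 0.01, and fits that left out 1 or 2 libraries. Leaving out vehicle replicate 3 with IGF1 replicate 2, and the minimum mean of 5 CPM, were chosen after seeing the data. All 9 symbols were found in RefSeq's gene table. 26 rows with date-like names were kept in the fit and are not named. Libraries of a group differed by more than sampling noise, so none was counted as a duplicate. The values of 1 pathway gene that the rule named are not reported here.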

Additional observations from a re-analysis of the deposited data

How the results depend on the processing

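The count of the 9 genes lower with phenylephrine than with vehicle, 2, became 4 with DESeq2, with scaling by library size only and with vehicle replicate 3 and IGF1 replicate 2 both left out. It became 1 without the filter, and 0 with limma-voom, at a threshold of 0.01, and with vehicle replicate 3 and IGF1 replicate 1 left out. Leaving out 1 library gave 0 to 4. The count higher, 0, became 1 with DESeq2, in the fit of 2 groups and with either pair left out, and was 0 to 1 with 1 library left out. Against IGF1 the 4 lower genes became 1 with limma-voom, 0 at a threshold of 0.01 and 1 to 4 with 1 library left out. The 1 gene higher with IGF1 than with vehicle became 0 at a threshold of 0.01 and with a filter of 1 CPM in 3 samples, which does not keep Mx1, and was 0 to 1 with 1 library left out. The replicate numbers do not pair the libraries (deviations of same-numbered libraries correlated at -0.08 to 0.02). With the replicate block 0 genes were lower than vehicle and 2 lower than IGF1. Over all genes, phenylephrine had 1751 higher and 5696 lower than vehicle, and 2132 higher than IGF1, when libraries were scaled by size only. At a fold of 2, vehicle replicate 3 and IGF1 replicate 2 held 3 and 5 of the 9 genes, and 28, 47, 30 and 105 genes stood out in vehicle replicate 3, IGF1 replicate 2, phenylephrine replicate 2 and IGF1 replicate 1. At a fold of 1.5 among genes with a mean of at least 5 CPM, 9, 19, 3 and 150 genes stood out in the same libraries, in place of 89, 155, 130 and 290 of all genes tested. Changes of sign touched no gene called in that comparison. For phenylephrine against vehicle, Mx2 and Ifi27 had log2 fold changes of 0.78 and 0.06 without vehicle replicate 3 and IGF1 replicate 1, and 0.77 and 0.05 without vehicle replicate 3 and IGF1 replicate 2. For IGF1 against vehicle, Irf9 had -0.03 with library size only and -0.07 without vehicle replicate 3 and IGF1 replicate 2, and Irf7 and Ifi27 had 0.50 and 0.31 without vehicle replicate 3 and IGF1 replicate 1. For phenylephrine against IGF1, Mx1 and Ifi27 had 0.44 and 0.27 without vehicle replicate 3 and IGF1 replicate 2. With 1 library left out, the ranges that crossed 0 were -0.25 to 0.21 for Irf9, -0.57 to 0.33 for Irf7, -0.50 to 0.19 for Ifi27 and -0.63 to 3.59 for Mx2 (IGF1 against vehicle), -3.65 to 0.77 for Mx2 and -0.36 to 0.05 for Ifi27 (phenylephrine against vehicle), and -0.67 to 0.44 for Mx1 and -0.37 to 0.27 for Ifi27 (phenylephrine against IGF1). Apart from fits with fewer libraries or genes, the cause of these changes was not tested. With 3 libraries per group, and 8 to 73 reads for Mx1, small differences in these genes were not detectable.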
